A study of Saccharomyces cerevisiae with 12 samples.

Results

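The genes described here encode the chromatin machinery of budding yeast that works beside Swi-Snf: 35 genes for the remodellers RSC, ISWI, CHD1, INO80, SWR1 and FUN30, the histone chaperones FACT, SPT6, ASF1 and HIR1, and the coactivator SAGA. They were listed by systematic gene name with no filter on measured values, though earlier results of these data were known. All 35 were found among the 7150 genes of the deposited count table. RNA depleted of ribosomal RNA was sequenced as paired ends from haploid Saccharomyces cerevisiae of mating type a, in 12 libraries of log-phase cells from rich medium with glucose. The question put to these genes is whether loss of the corepressor subunit Cyc8 or of the Swi-Snf ATPase Snf2 changes the expression of the other remodellers.

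The cyc8 snf2 group (n = 4) is the strain YDB1.7, derived from FY2083, with the alleles snf2::LEU2, cyc8::URA3, his3del200, ura3del0, trp1-del63, lys2del0 and met15del0. The cyc8 group (n = 3) is the strain YAFTCD4, which is BY4741 with cyc8::KAN, and the wild type group (wt, n = 3) is BY4741 itself, with his3del1, leu2del0, met15del0 and ura3del0. The snf2 group (n = 2) is FY2083 with snf2::LEU2. Strain and genotype therefore cannot be told apart where a snf2 or cyc8 snf2 library is set against a wt or cyc8 library. Loss of Cyc8 within 1 background is measured by cyc8 against wt and by cyc8 snf2 against snf2, and the difference between those changes is called the interaction here. The interaction sets one background against the other, so strain and Snf2 cannot be told apart in it either. Each genotype is 1 strain, and nothing in the labels says that replicates came from separate cultures, so p-values cover the spread among libraries, which may be technical.

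Chromatin remodellers are enzymes with a Snf2-family ATPase that slide, evict or exchange nucleosomes along DNA. RSC is the abundant and essential relative of Swi-Snf and keeps promoters open, and ISWI and CHD1 space nucleosomes. SWR1 exchanges the histone variant Htz1 into nucleosomes, and INO80 acts on nucleosomes that carry it. Histone chaperones hand histones to and from DNA during transcription and replication, and SAGA acetylates histones and delivers the TATA-binding protein. Swi-Snf itself is opposed at many promoters by Tup1-Cyc8, a corepressor recruited to its target genes by sequence-specific repressors.

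The libraries held 16378131 to 27230570 counts over genes. Their TMM scaling factors lay at 0.923 to 0.984 in cyc8 snf2, 0.853 to 1 in cyc8, 1.21 to 1.22 in snf2 and 1.04 to 1.06 in wt, and cyc8 replicate 3 was the one at 1. The marker genes followed the labels, LEU2 at 173 to 498 CPM (counts relative to the library size after that scaling) in the snf2::LEU2 strains and at most 0.172 CPM in the others, and URA3 at 16.7 to 19.6 CPM in cyc8 snf2 and at most 0.0417 CPM elsewhere. Transcripts of the disrupted genes were still counted: CYC8 had 50.0 to 55.5 CPM in cyc8 snf2 and 54.1 to 63.3 CPM in cyc8, against 58.2 and 64.9 CPM in snf2 and 69.9 to 82.5 CPM in wt. SNF2 had 103 to 113 CPM in cyc8 snf2 and 65.3 and 66.6 CPM in snf2, against 73.2 to 89.2 CPM in cyc8 and 70.6 to 85.3 CPM in wt. Their levels therefore do not check the alleles. The 6 markers of a cells had 4.57 CPM or more in every library, and all 6 were lower in each mutant group than in wt (edgeR adjusted p at most 0.0101). The lowest was BAR1, at 4.57 to 8.88 CPM in cyc8 snf2, 8.76 to 12.5 CPM in cyc8 and 36.5 and 40.5 CPM in snf2, against 142 to 209 CPM in wt. Of the 3 alpha-cell markers, MF(ALPHA)1 and MF(ALPHA)2 had at most 0.626 CPM, and STE3 had 0.256 to 0.325 CPM in cyc8 snf2, 0.515 to 0.921 CPM in cyc8, 9.32 and 9.14 CPM in snf2 and 2.5 to 4.04 CPM in wt. The part of mating-type genes in the changes of the 35 genes was not tested.

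The changes among the 35 genes were small, and the one that reached 2-fold in any comparison was that of ASF1 in cyc8. Loss of Cyc8 in the BY4741 background (cyc8 against wt) moved 17 of the 35 past the test (edgeR quasi-likelihood, Benjamini-Hochberg adjusted p below 0.05), close to the 46.8% of all 6171 genes tested, but 14 of them were lower, against 23.9% of all genes, and 3 were higher, against 22.9%. The genes that fell were RSC2, RSC3, RSC30, RSC58, HTL1, NPL6, LDB7, ISW1, ISW2, IOC3, SPT6, SPT7, ADA2 and HIR1, and those that rose were ITC1, SPT8 and ASF1. Of all genes, 13.9% passed with a change of at least 2-fold, and ASF1 did so among the 35. The median log2 fold change was -0.18 over the 35 genes and -0.05 over all genes tested, with 28 of the 35 below 0 (80%), against 54.5% of all genes.

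Set against wt, the snf2 libraries differed in 6 of the 35, against 35.9% of all genes. FUN30, SPT16, SPT3 and ASF1 rose, with 17.3% of all genes higher, and RSC3 and LDB7 fell, with 18.7% of all genes lower. The cyc8 snf2 libraries differed from wt in 14, against 50.9% of all genes. RSC2, RSC3, RSC30, RSC58, ISW2, IOC3, CHD1, INO80, SPT7, ADA2 and HIR1 fell (25.6% of all genes did), and HTL1, ITC1 and ASF1 rose (25.3%). Loss of Cyc8 in the FY2083 background (cyc8 snf2 against snf2) moved 11, against 48.1% of all genes: RSC1, RSC30, ISW2, IOC2, IOC3, SPT16, SPT7, SPT3 and HIR1 fell (23.8% of all genes did), and RSC9 and LDB7 rose (24.3%). In cyc8 snf2 against cyc8 only STH1, HTL1, ISW1 and SPT6 passed, all higher, while 19% of all genes passed, 8.62% higher and 10.4% lower. No member was lower there by edgeR, 3 were at an unadjusted p below 0.05, 2 by DESeq2 and 0 by limma-voom.

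No member reached 2-fold with an adjusted p below 0.05 in any test other than cyc8 against wt. Of all genes the share was 9.64% in snf2 against wt, 13.7% in cyc8 snf2 against wt, 12.2% against snf2, 3.94% against cyc8 and 8.9% for the interaction. That count of 0 was the same at an unadjusted p below 0.05 by edgeR, by DESeq2 and by limma-voom. The median log2 fold change of the 35 genes was 0.01 in snf2 against wt (0.02 over all genes), -0.15 in cyc8 snf2 against wt (-0.03), -0.14 against snf2 (-0.03) and 0.02 against cyc8 (0.01). The quartiles of the 35 genes in cyc8 against wt were -0.29 and -0.09, and those of all genes -0.31 and 0.32.

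**Figure D1:**
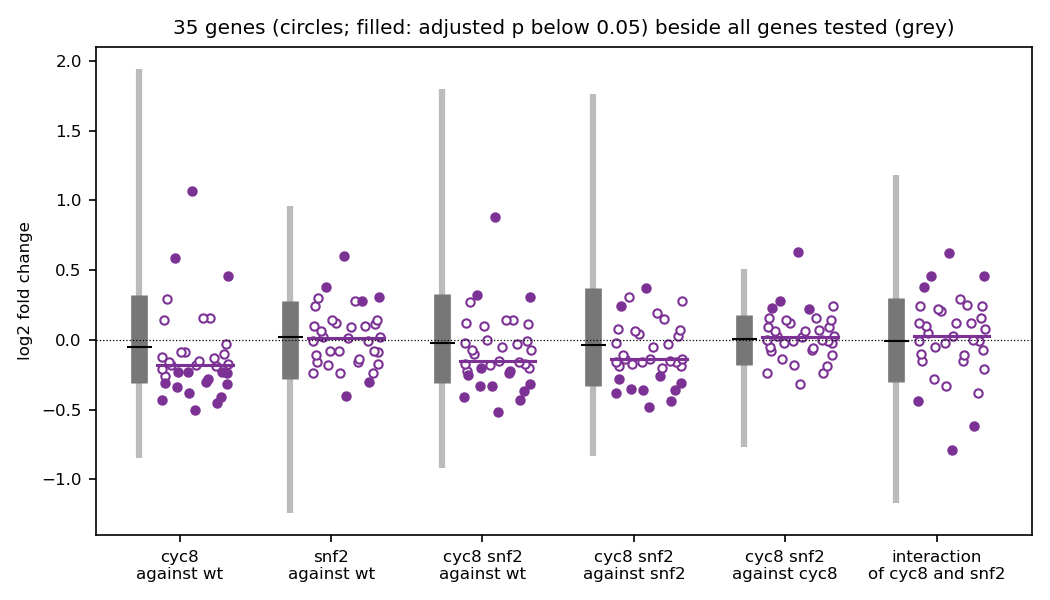
Log2 fold changes (vertical axis) of the 35 genes (circles, filled where the edgeR adjusted p is below 0.05, with a line at their median) in each comparison on the horizontal axis, beside all 6171 genes tested (thick grey bar, quartiles; thin grey bar, all but the lowest and highest 5%; black tick, median). In cyc8 against wt 28 of the 35 lie below 0 and ASF1 stands alone at 1.07, while in cyc8 snf2 against cyc8 the 35 genes lie between -0.32 and 0.63.

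How many members passed depended on single libraries and on the scaling. In cyc8 against wt the count was 10 without cyc8 replicate 1 and 9 without cyc8 replicate 2, and with RLE in place of TMM scaling 4 rose and 8 fell. There RSC2, HTL1, NPL6, LDB7, ISW2 and SPT7 passed neither under RLE scaling nor by DESeq2, and HTL1 also not by limma-voom. In snf2 against wt it was 3 without snf2 replicate 1, 1 without snf2 replicate 2, 3 without wt replicate 1 and 3 without wt replicate 2. It was 9 in cyc8 snf2 against wt without wt replicate 2, and upper-quartile scaling gave 1 higher and 17 lower. Against snf2 it was 5 in cyc8 snf2 without snf2 replicate 1 and 3 without snf2 replicate 2, with 3 higher and 7 lower under RLE scaling and 1 higher and 18 lower under upper-quartile scaling. Against cyc8 it was 1 in cyc8 snf2 without cyc8 replicate 1 and 1 without cyc8 replicate 2, and RLE scaling gave 3 higher and 1 lower. Of the 59 changes that passed over all 6 tests, 18 passed under every alternative tried, 41 were lost under at least 1, and 0 changed direction. The losses given with each gene below are those on leaving out single libraries, not those under other settings.

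**Figure D2:**
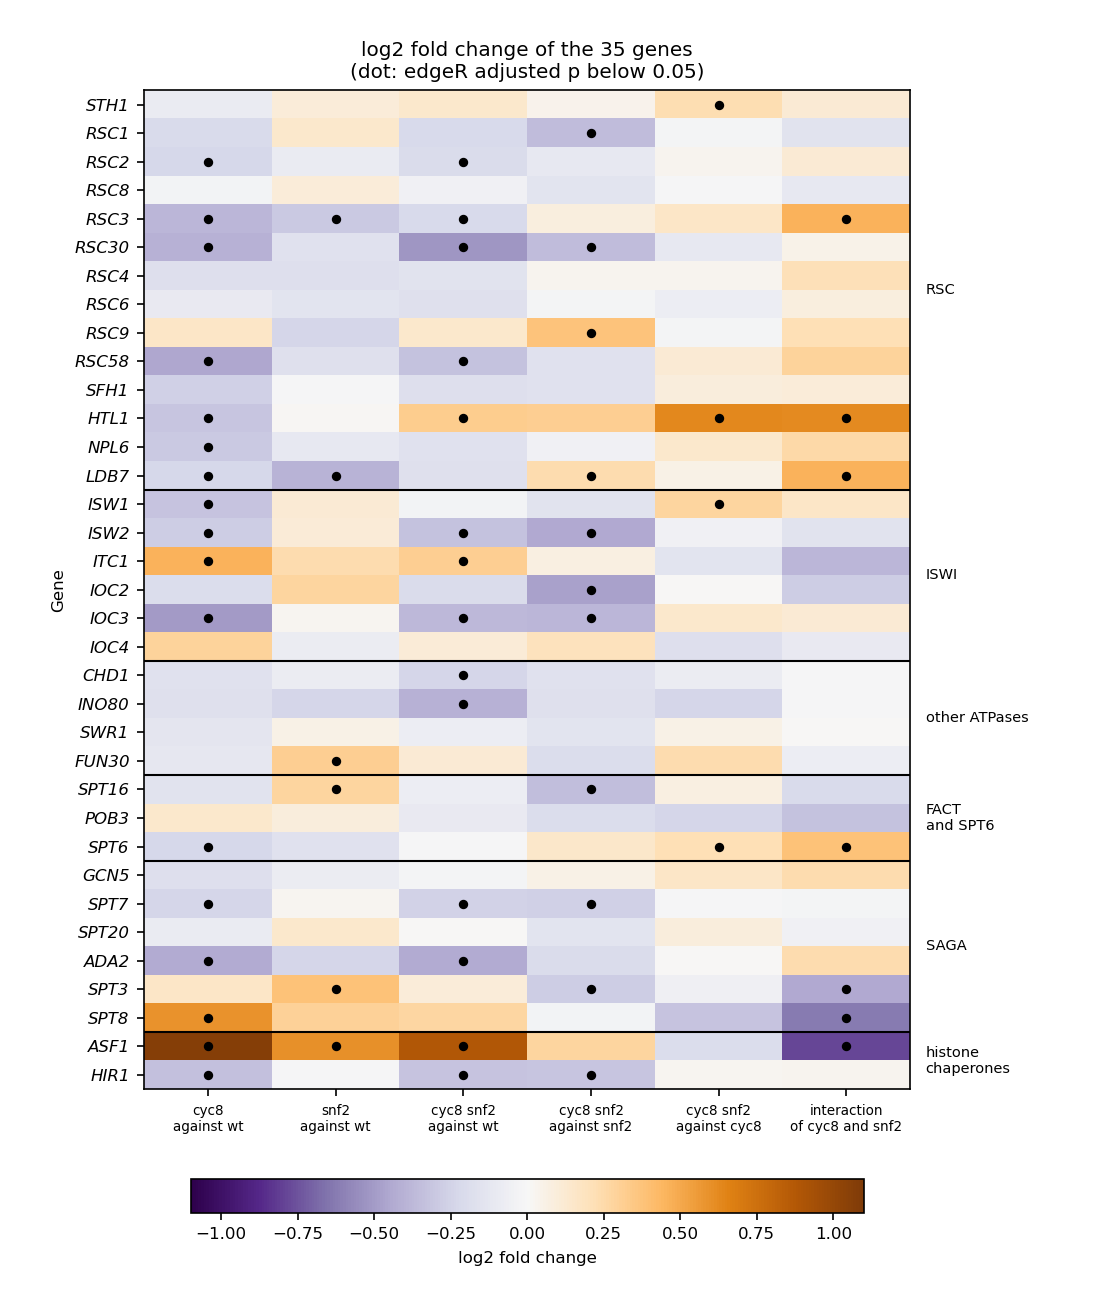
Log2 fold change (colour) of each of the 35 genes (vertical axis, grouped by complex) in the 5 comparisons and the interaction (horizontal axis), with a dot where the edgeR adjusted p is below 0.05. In cyc8 against wt dots on purple (lower) fall on 14 genes and dots on orange (higher) on 3.

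The 3 largest changes in cyc8 were in ASF1, SPT8 and IOC3, and the 250 bases before the counted model of each are printed here because these genes carry the clearest rises and the clearest fall. The sequences were read from the RefSeq genome of build R64, 5′ to 3′ on the strand of the gene, and end at the base before the model's first base. The windows are chrX:195353-195602 for ASF1 (plus strand), chrXII:253120-253369 for SPT8 (minus strand) and chrVI:169616-169865 for IOC3 (plus strand). Capitals mark the only match found to the letters of 5 motifs, TTACCCG (Reb1), CGCGC (Rsc3), CCCCT (stress response element), ACGCGT (MCB) and CGCGAAA (SCB), searched on both strands. It is an SCB match on the reverse strand upstream of SPT8. The coordinates given with other genes are those of their counted models, in the same build.
ASF1: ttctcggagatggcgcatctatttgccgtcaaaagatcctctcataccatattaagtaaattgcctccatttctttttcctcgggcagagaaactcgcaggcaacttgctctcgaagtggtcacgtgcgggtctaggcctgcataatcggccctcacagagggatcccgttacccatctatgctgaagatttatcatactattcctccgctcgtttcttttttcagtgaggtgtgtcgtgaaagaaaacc
SPT8: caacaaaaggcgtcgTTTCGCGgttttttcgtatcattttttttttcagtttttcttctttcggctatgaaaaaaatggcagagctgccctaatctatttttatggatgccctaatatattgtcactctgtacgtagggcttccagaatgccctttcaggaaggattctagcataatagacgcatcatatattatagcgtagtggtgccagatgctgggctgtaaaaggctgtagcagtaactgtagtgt
IOC3: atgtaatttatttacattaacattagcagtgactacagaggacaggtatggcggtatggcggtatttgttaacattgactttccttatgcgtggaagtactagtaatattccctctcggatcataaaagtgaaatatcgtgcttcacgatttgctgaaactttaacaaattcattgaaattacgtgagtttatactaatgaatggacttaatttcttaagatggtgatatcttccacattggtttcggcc

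Over the window from 250 bases before to 50 bases after the start of each model, the SCB letters were found at 4 of the 35 genes (11.4%) and at 4.23% of 5998 protein-coding genes. Those 4 were RSC1, FUN30, POB3 and SPT8. Reb1 letters were found at 6 of the 35 (17.1%, against 7.95% of all), the genes RSC58, NPL6, INO80, SPT6, SPT7 and SPT20. The Rsc3 letters were found at RSC1 and RSC2 (5.71%, against 13.1%), the stress response element at 8 (22.9%, against 21.6%) and MCB at GCN5 (2.86%, against 3.48%). The motifs of Rsc3, MCB and SCB have the letters CGCG in common, so that their matches can overlap. A match describes the letters and is not a bound site.

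ASF1 (YJL115W, chrX:195603-197228), which chaperones histones H3 and H4, showed the largest change of the 35 genes. It had 14.7, 9.95, 10.3 and 10.8 CPM in cyc8 snf2, 11.3, 14.0 and 14.0 CPM in cyc8, 8.45 and 10.5 CPM in snf2, and 5.98, 5.52 and 7.22 CPM in wt. Every mutant library lay above every wt library, and the cyc8 snf2 and snf2 libraries overlapped. The log2 fold change was 1.07 ± 0.17 (SE) in cyc8 against wt (adjusted p = 0.000187), 0.60 ± 0.19 in snf2 against wt (adjusted p = 0.0247) and 0.88 ± 0.16 in cyc8 snf2 against wt (adjusted p = 0.000601). Between cyc8 snf2 and snf2 it was 0.28 ± 0.18 (95% interval -0.11 to 0.66, adjusted p = 0.215). The rise in snf2 did not pass without snf2 replicate 2, wt replicate 1 or wt replicate 2 (adjusted p = 0.0708 to 0.223), whereas those in cyc8 and cyc8 snf2 passed under every alternative tried. In cyc8 against wt the 95% interval was 0.70 to 1.44. The log2 fold change there ranged from 0.95 to 1.19 over the alternatives, so 2-fold was not reached under all of them. The counted model of ASF1 begins 684 bases before the gene of the reference annotation, so its counts can include RNA from upstream of that start.

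HIR1 (YBL008W, chrII:209530-212279), a subunit of the HIR complex that deposits histones outside replication and represses histone genes, moved the other way. It had 14.8, 16.9, 16.6 and 17.6 CPM in cyc8 snf2 and 15.1, 15.7 and 18.0 CPM in cyc8, against 21.0 and 19.9 CPM in snf2 and 20.7, 18.7 and 22.2 CPM in wt. All 7 libraries labelled with cyc8 lay below all 5 without it. HIR1 fell by 0.34 ± 0.11 on the log2 scale in cyc8 against wt (adjusted p = 0.0179), by 0.32 ± 0.10 in cyc8 snf2 against wt (adjusted p = 0.0157) and by 0.31 ± 0.11 in cyc8 snf2 against snf2 (adjusted p = 0.0326). The calls were lost without cyc8 replicate 1, cyc8 replicate 2 or wt replicate 3 in the comparison of cyc8 with wt (adjusted p = 0.0616 to 0.0665), and without wt replicate 3 in that of cyc8 snf2 with wt (adjusted p = 0.0616). Against snf2 the call was lost without any library except cyc8 snf2 replicate 4 (adjusted p = 0.05 to 0.217).

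In cyc8 against wt the ISWI genes held both a rise and the largest fall of the 35 genes. Isw1 is an ATPase that works with Ioc3 in one complex and with Ioc2 and Ioc4 in another, and Isw2 is a related ATPase whose partner is Itc1. ISW1, ISW2 and IOC3 fell and ITC1 rose in cyc8 against wt. IOC3 (YFR013W, chrVI:169866-172447) had 37.1, 34.9, 35.1 and 31.8 CPM in cyc8 snf2 and 30.7, 30.8 and 33.2 CPM in cyc8, against 43.4 and 47.0 CPM in snf2 and 43.2, 46.6 and 44.4 CPM in wt. The 7 libraries labelled with cyc8 lay below the other 5 without overlap. IOC3 fell by 0.50 ± 0.08 in cyc8 against wt (adjusted p = 0.000164), by 0.37 ± 0.07 in cyc8 snf2 against wt (adjusted p = 0.00103) and by 0.38 ± 0.08 in cyc8 snf2 against snf2 (adjusted p = 0.0019), under every alternative tried.

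ITC1 (YGL133W, chrVII:257707-261501) had 23.6, 22, 22.9 and 23.9 CPM in cyc8 snf2, 20.8, 26.2 and 29.3 CPM in cyc8, 22.5 and 21.4 CPM in snf2, and 19.7, 17.7 and 18.3 CPM in wt. All mutant libraries lay above the wt libraries, and cyc8 replicate 1 was the lowest of the mutants. Its log2 fold change was 0.46 ± 0.11 in cyc8 against wt (adjusted p = 0.00502), which passed under every alternative tried, and 0.31 ± 0.11 in cyc8 snf2 against wt (adjusted p = 0.0264), which did not pass without wt replicate 2 or wt replicate 3 (adjusted p = 0.054 and 0.0837). In snf2 against wt it was 0.24 ± 0.13 (adjusted p = 0.161).

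ISW1 (YBR245C, chrII:708150-711539) had 58.5, 62.8, 61.7 and 62.2 CPM in cyc8 snf2, 49.2, 48.4 and 53.5 CPM in cyc8, 69.3 and 67.0 CPM in snf2, and 61.8, 58.0 and 68.5 CPM in wt. The cyc8 libraries lay below all others. ISW1 fell by 0.32 ± 0.08 in cyc8 against wt (adjusted p = 0.00425) and was 0.28 ± 0.07 higher in cyc8 snf2 than in cyc8 (adjusted p = 0.0164), the last not without cyc8 snf2 replicate 4, cyc8 replicate 1 or cyc8 replicate 2 (adjusted p = 0.0532 to 0.0689). ISW2 (YOR304W, chrXV:884472-887958) had 33.9, 41.5, 34.8 and 39.0 CPM in cyc8 snf2 and 34.0, 38.6 and 43.1 CPM in cyc8, against 49.3 and 51.7 CPM in snf2 and 44.3, 49.7 and 46.9 CPM in wt. The libraries labelled with cyc8 again lay below the rest. ISW2 fell by 0.44 ± 0.11 in cyc8 snf2 against snf2 (adjusted p = 0.00405), by 0.33 ± 0.09 in cyc8 snf2 against wt (adjusted p = 0.0103) and by 0.28 ± 0.10 in cyc8 against wt (adjusted p = 0.0352). The last was lost without cyc8 replicate 1, cyc8 replicate 2, wt replicate 2 or wt replicate 3 (adjusted p = 0.0517 to 0.143), and the first without snf2 replicate 2 (adjusted p = 0.0509).

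IOC2 (YLR095C, chrXII:329616-332156) had 19.3, 16.3, 16.2 and 16.9 CPM in cyc8 snf2, against 23.6 and 24.2 CPM in snf2. These groups did not overlap, and IOC2 fell by 0.48 ± 0.10 (adjusted p = 0.00165), under every alternative tried. In cyc8 it had 15.9, 18.8 and 16.8 CPM, against 19.5, 20.3 and 19.2 CPM in wt, a log2 fold change of -0.19 ± 0.10 that did not pass (adjusted p = 0.119). IOC4 (YMR044W, chrXIII:355314-357001) had a log2 fold change of 0.29 ± 0.12 in cyc8 against wt (adjusted p = 0.0688) and passed in none of the other comparisons.

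**Figure D3:**
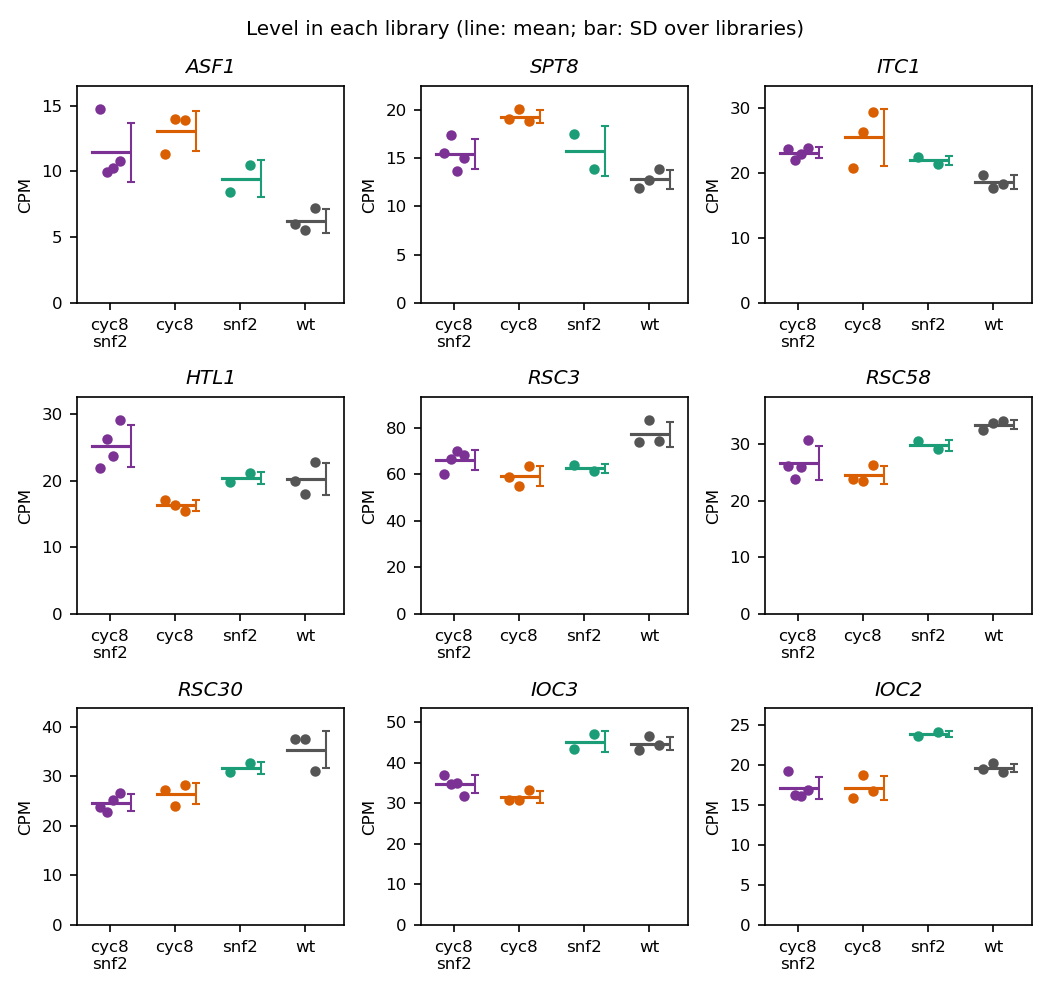
CPM (vertical axis, from 0) of 9 genes in each of the 12 libraries, by group on the horizontal axis, with the group mean (line) and SD (bar). ASF1 lies at 8.45 CPM or more in every mutant library and at 7.22 CPM or less in wt, and IOC3 at 37.1 CPM or less in the 7 libraries labelled with cyc8 and 43.2 CPM or more in the other 5.

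The RSC genes moved mainly down in cyc8. Of the 14, 7 fell (50%, against 23.9% of all genes), 0 rose (against 22.9%) and 13 had a log2 fold change below 0 (92.9%, against 54.5%). Their median was -0.23, beside -0.05 over all genes. DESeq2 called 3 of the 14 lower and limma-voom 6. The count of 0 higher was the same by edgeR at an unadjusted p below 0.05, by DESeq2 and by limma-voom, and RSC9, at 0.16 ± 0.08, was the only one of the 14 above 0. The other comparisons gave no larger share of the 14 lower or higher than 28.6%. In snf2 against wt 2 of the 14 fell (14.3%, against 18.7% of all genes). Between cyc8 snf2 and wt 4 fell (28.6%, against 25.6%) and 1 rose (7.14%, against 25.3%). Between cyc8 snf2 and snf2 2 fell and 2 rose (14.3% each, against 23.8% and 24.3%), and between cyc8 snf2 and cyc8 2 rose (14.3%, against 8.62%). A further 12 subunit genes of Swi-Snf and RSC were listed apart from the 14. In cyc8 against wt 3 of those 12 fell (25%, against 23.9% of all genes) and 1 rose (8.33%, against 22.9%). RTT102 was the gene that rose, by 0.42 ± 0.11 (adjusted p = 0.00799).

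STH1 (YIL126W, chrIX:117922-122208), the ATPase of RSC, had 97.7, 96.3, 90.1 and 90.7 CPM in cyc8 snf2, 76.3, 79.6 and 84.5 CPM in cyc8, 89.5 and 93.5 CPM in snf2, and 83.5, 91.4 and 80.3 CPM in wt. The cyc8 snf2 libraries lay above the cyc8 libraries, and cyc8 and wt overlapped. Its log2 fold change was 0.23 ± 0.07 in cyc8 snf2 against cyc8 (adjusted p = 0.0355), -0.09 ± 0.07 in cyc8 against wt (95% interval -0.24 to 0.07, adjusted p = 0.353) and 0.10 ± 0.08 in snf2 against wt (95% interval -0.07 to 0.28, adjusted p = 0.344). The call against cyc8 was lost without any 1 of 5 libraries (cyc8 snf2 replicates 1 and 2 and all 3 of cyc8), with adjusted p = 0.0506 to 0.121.

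RSC3 and RSC30 encode paralogous zinc cluster proteins that bind DNA for RSC. RSC3 (YDR303C, chrIV:1068481-1071708) had 60.2, 66.6, 70.0 and 68.4 CPM in cyc8 snf2, 59.0, 55.2 and 63.7 CPM in cyc8, 63.9 and 61.3 CPM in snf2, and 74.1, 83.3 and 74.2 CPM in wt, so that every mutant library lay below every wt library. It fell by 0.38 ± 0.08 in cyc8 against wt (adjusted p = 0.00197), by 0.30 ± 0.09 in snf2 against wt (adjusted p = 0.0212) and by 0.22 ± 0.08 in cyc8 snf2 against wt (adjusted p = 0.0293). The call in cyc8 passed under every alternative tried, that in snf2 was lost without either snf2 library or wt replicate 2 (adjusted p = 0.0741 to 0.14), and that in cyc8 snf2 without cyc8 snf2 replicate 1, cyc8 snf2 replicate 2 or wt replicate 2 (adjusted p = 0.0551 to 0.136).

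RSC30 (YHR056C, chrVIII:215183-217834) had 23.8, 22.8, 25.2 and 26.7 CPM in cyc8 snf2, 27.3, 24.0 and 28.2 CPM in cyc8, 30.8 and 32.6 CPM in snf2, and 37.4, 37.5 and 31.0 CPM in wt. The libraries labelled with cyc8 lay below the other 5. RSC30 fell by 0.41 ± 0.10 in cyc8 against wt (adjusted p = 0.0043), by 0.52 ± 0.09 in cyc8 snf2 against wt (adjusted p = 0.000457) and by 0.36 ± 0.11 in cyc8 snf2 against snf2 (adjusted p = 0.0118), the last not without snf2 replicate 2 (adjusted p = 0.111). Of the 50-base words in the RSC30 model, 39.2% occur elsewhere in the genome, so its counts are less certain than those of the other 34 members, which had no such words.

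RSC58 (YLR033W, chrXII:208653-210479), a subunit found in RSC alone, had 26.2, 23.8, 25.9 and 30.8 CPM in cyc8 snf2 and 23.8, 23.4 and 26.3 CPM in cyc8, against 30.5 and 29.1 CPM in snf2 and 32.5, 33.7 and 34.0 CPM in wt. The libraries labelled with cyc8 lay below those of wt. The fall was 0.45 ± 0.10 on the log2 scale in cyc8 (adjusted p = 0.00202) and 0.33 ± 0.09 in cyc8 snf2 (adjusted p = 0.00859), both under every alternative tried. RSC1 and RSC2 encode paralogs with bromodomains that define alternative forms of RSC. They differed in which test they passed, though their changes against wt were of similar size. RSC1 changed by -0.21 ± 0.12 in cyc8 against wt (adjusted p = 0.156) and by -0.22 ± 0.11 in cyc8 snf2 against wt (adjusted p = 0.0987). RSC2 changed by -0.11 ± 0.09 in cyc8 snf2 against snf2 (adjusted p = 0.324). RSC1 (YGR056W, chrVII:601352-604526) had 22.3, 29.8, 24.7 and 27.2 CPM in cyc8 snf2, against 34.3 and 32.4 CPM in snf2, without overlap. It fell by 0.36 ± 0.12 there (adjusted p = 0.0246), a call lost without cyc8 snf2 replicate 1, cyc8 snf2 replicate 3 or either snf2 library (adjusted p = 0.0554 to 0.172). RSC2 (YLR357W, chrXII:841272-844191) fell by 0.23 ± 0.09 in cyc8 against wt (adjusted p = 0.0405) and by 0.20 ± 0.08 in cyc8 snf2 against wt (adjusted p = 0.0481). Each of these was lost on leaving out any 1 of 5 libraries, all but wt replicate 3 in the first (adjusted p = 0.0725 to 0.147) and all but cyc8 snf2 replicate 3 and wt replicate 3 in the second (adjusted p = 0.0526 to 0.187).

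The small subunit gene HTL1 (YCR020W-B, chrIII:155254-156074) was lowest in cyc8 and highest in cyc8 snf2. It had 21.9, 26.3, 23.6 and 29.1 CPM in cyc8 snf2, 17.1, 16.3 and 15.5 CPM in cyc8, 19.8 and 21.1 CPM in snf2, and 19.9, 18.0 and 22.8 CPM in wt. The cyc8 libraries lay below every other, and the cyc8 snf2 and wt libraries overlapped. Its log2 fold change was 0.63 ± 0.11 in cyc8 snf2 against cyc8 (adjusted p = 0.00163), under every alternative tried. It fell by 0.31 ± 0.12 in cyc8 against wt (adjusted p = 0.0459), a call lost without any library except wt replicate 2 (adjusted p = 0.063 to 0.213). It rose by 0.32 ± 0.11 in cyc8 snf2 against wt (adjusted p = 0.0279), a call lost without cyc8 snf2 replicates 2 or 4 or wt replicates 1 or 2 (adjusted p = 0.0657 to 0.119).

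LDB7 and NPL6 encode partners of Htl1 in one module of RSC. LDB7 (YBL006C, chrII:216354-217444) had 40.6, 38.1, 35.9 and 37.3 CPM in cyc8 snf2, 38.5, 37.1 and 33.7 CPM in cyc8, 32.1 and 32.5 CPM in snf2, and 45.2, 41.8 and 41.0 CPM in wt. Its snf2 libraries were the lowest and its wt libraries the highest. LDB7 fell by 0.40 ± 0.09 in snf2 against wt (adjusted p = 0.00314), under every alternative tried, and by 0.23 ± 0.08 in cyc8 against wt (adjusted p = 0.0301), not without cyc8 replicate 2, cyc8 replicate 3 or wt replicate 1 (adjusted p = 0.054 to 0.235). It was 0.24 ± 0.08 higher in cyc8 snf2 than in snf2 (adjusted p = 0.0338), not without cyc8 snf2 replicate 1, cyc8 snf2 replicate 2 or either snf2 library (adjusted p = 0.0577 to 0.133). Models on the other strand cover 81.2% of the LDB7 model. NPL6 (YMR091C, chrXIII:449883-451464) fell by 0.30 ± 0.11 in cyc8 against wt (adjusted p = 0.0436), lost without cyc8 replicates 1 or 2 or wt replicates 1 or 2 (adjusted p = 0.0666 to 0.176).

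RSC9 (YML127W, chrXIII:16984-18986), a DNA-binding subunit, had 71.2, 65.9, 77.2 and 64.7 CPM in cyc8 snf2, against 51.6 and 56.0 CPM in snf2, and these groups did not overlap. The log2 fold change was 0.37 ± 0.09 (adjusted p = 0.004), and 0.0536 was the adjusted p without snf2 replicate 1. RSC8 and RSC6, whose products resemble subunits of Swi-Snf, SFH1, which resembles SNF5, and the bromodomain subunit RSC4 passed in none of the comparisons. In cyc8 against wt the log2 fold change was -0.03 ± 0.09 for RSC8 (YFR037C, chrVI:227336-229219), -0.10 ± 0.08 for RSC6 (YCR052W, chrIII:214871-218119), -0.26 ± 0.11 (adjusted p = 0.0546) for SFH1 (YLR321C, chrXII:776257-777931) and -0.18 ± 0.09 for RSC4 (YKR008W, chrXI:452146-454203). The model of RSC6 shares 51.6% of its length with another gene on its strand.

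Among the single ATPases outside RSC and ISWI, none of CHD1, INO80, SWR1 and FUN30 passed in cyc8 against wt, where their log2 fold changes lay between -0.17 and -0.12. In cyc8 snf2 against snf2 they lay between -0.19 and -0.14, and none passed there. Both counts were 0 by edgeR, also at an unadjusted p below 0.05, by DESeq2 and by limma-voom. INO80 (YGL150C, chrVII:220899-225724), the ATPase of the complex of that name, had 87.7, 75.4, 67.3 and 68.4 CPM in cyc8 snf2, 78.2, 95.7 and 91.2 CPM in cyc8, 84.3 and 84.2 CPM in snf2, and 106.5, 96 and 95 CPM in wt. The cyc8 snf2 and wt libraries did not overlap, and cyc8 and wt did. INO80 fell by 0.41 ± 0.10 in cyc8 snf2 against wt (adjusted p = 0.00344), under every alternative tried, while in cyc8 it changed by -0.17 ± 0.10 (adjusted p = 0.21) and in snf2 by -0.24 ± 0.12 (adjusted p = 0.14).

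CHD1 (YER164W, chrV:505392-509798), which spaces nucleosomes over transcribed genes, had 66.6, 61.2, 67.6 and 58.6 CPM in cyc8 snf2, 66.0, 67.2 and 68.1 CPM in cyc8, 67.9 and 74.0 CPM in snf2, and 74.9, 79.8 and 69.6 CPM in wt. It fell by 0.24 ± 0.07 in cyc8 snf2 against wt (adjusted p = 0.0162), where the groups did not overlap, a call lost without cyc8 snf2 replicate 4 or wt replicate 2 (adjusted p = 0.0582 and 0.0788). FUN30 (YAL019W, chrI:114788-118363), a single-subunit ATPase of DNA end resection and silencing, had 59.1, 63.3, 67.2 and 71.4 CPM in cyc8 snf2, 56.1, 55.2 and 54.8 CPM in cyc8, 76.8 and 71.8 CPM in snf2, and 58.9, 54.3 and 66.6 CPM in wt. The snf2 libraries were the highest. The rise was 0.31 ± 0.10 in snf2 against wt (adjusted p = 0.0252) and was lost without either snf2 library, wt replicate 1 or wt replicate 2 (adjusted p = 0.0703 to 0.196).

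SWR1 (YDR334W, chrIV:1135932-1140476), which exchanges histone variant Htz1 into nucleosomes, had 46.7, 44.9, 41.1 and 45.1 CPM in cyc8 snf2, 36.0, 50.3 and 41.6 CPM in cyc8, 50.5 and 47.3 CPM in snf2, and 47.4, 48.7 and 44.5 CPM in wt. The cyc8 snf2 libraries lay below the snf2 libraries, and every other pair of groups overlapped. It passed in none of the comparisons, and the 95% interval of its log2 fold change was -0.36 to 0.09 in cyc8 against wt, -0.19 to 0.31 in snf2 against wt and -0.29 to 0.14 in cyc8 snf2 against wt.

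**Figure D4:**
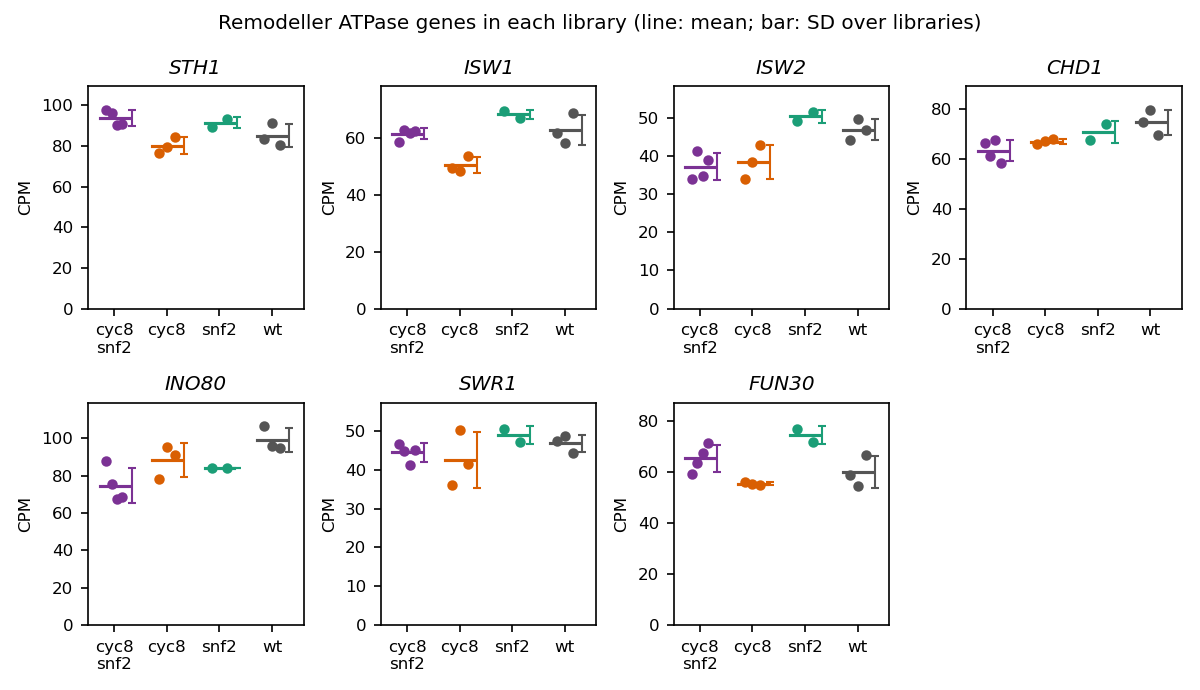
CPM (vertical axis, from 0) of the 7 remodeller ATPase genes in each library, by group on the horizontal axis, with the group mean (line) and SD (bar). ISW1 is lowest in the 3 cyc8 libraries (48.4 to 53.5 CPM), INO80 is lower in cyc8 snf2 (67.3 to 87.7 CPM) than in wt (95 to 106.5 CPM), and SWR1 in cyc8 (36.0 to 50.3 CPM) spans the range of wt (44.5 to 48.7 CPM).

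The chaperone genes SPT6 and SPT16 had the highest levels of the 35 genes per kilobase in every group. Per kilobase of gene model, SPT6 had 53.9 ± 2.56 CPM in cyc8 snf2, 46.3 ± 3.73 CPM in cyc8, 48.5 ± 0.0952 CPM in snf2 and 54.1 ± 2.66 CPM in wt (SD). In wt the lowest level per kilobase was that of ASF1, at 3.84 ± 0.543 CPM, and the next was ITC1, at 4.90 ± 0.271 CPM (SD, n = 3 each). SPT16 (YGL207W, chrVII:98568-102210), the large subunit of FACT, had 141, 148.7, 152 and 157 CPM in cyc8 snf2, 127, 148 and 151 CPM in cyc8, 183 and 199.5 CPM in snf2, and 150.2, 167.5 and 154 CPM in wt. Its snf2 libraries were above all others. It rose by 0.28 ± 0.09 in snf2 against wt (adjusted p = 0.0237), lost without snf2 replicate 2 or wt replicate 1 (adjusted p = 0.192 and 0.0851), and fell by 0.35 ± 0.08 in cyc8 snf2 against snf2 (adjusted p = 0.00336), lost without snf2 replicate 2 (adjusted p = 0.0706). POB3 (YML069W, chrXIII:135415-137318), its partner, passed in none of the comparisons, with log2 fold changes of 0.14 ± 0.09 in cyc8 against wt, 0.09 ± 0.10 in snf2 against wt and -0.19 ± 0.10 in cyc8 snf2 against snf2.

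SPT6 (YGR116W, chrVII:720286-724955), a chaperone that travels with RNA polymerase II, had 263, 258, 250.4 and 235 CPM in cyc8 snf2, 202, 211 and 235 CPM in cyc8, 226 and 227 CPM in snf2, and 243, 267 and 249 CPM in wt. The cyc8 libraries lay below those of wt, and the cyc8 and cyc8 snf2 libraries touched at 235 CPM. It fell by 0.23 ± 0.07 in cyc8 against wt (adjusted p = 0.0216), lost without cyc8 replicate 1, cyc8 replicate 2 or wt replicate 2 (adjusted p = 0.0667 to 0.0869). It was 0.22 ± 0.07 higher in cyc8 snf2 than in cyc8 (adjusted p = 0.041), lost without any 1 of 5 libraries, cyc8 snf2 replicates 1 to 3 and cyc8 replicates 1 and 2 (adjusted p = 0.0726 to 0.146).

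The SAGA genes did not move as a block. Of the 6, in cyc8 against wt SPT7 and ADA2 fell, SPT8 rose, and GCN5, SPT20 and SPT3 did not pass. SPT8 (YLR055C, chrXII:251242-253119), one of the subunits that contact the TATA-binding protein, had 15.5, 17.4, 13.6 and 15.1 CPM in cyc8 snf2, 19.0, 20.1 and 18.8 CPM in cyc8, 17.5 and 13.9 CPM in snf2, and 11.9, 12.7 and 13.8 CPM in wt. The cyc8 libraries were above all others. The log2 fold change was 0.59 ± 0.12 in cyc8 against wt (adjusted p = 0.00103), under every alternative tried, and -0.03 ± 0.12 in cyc8 snf2 against snf2 (95% interval -0.30 to 0.24, adjusted p = 0.864). Between cyc8 snf2 and cyc8 it was -0.32 ± 0.11 (adjusted p = 0.0542).

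ADA2 (YDR448W, chrIV:1356029-1357472), the adaptor of the acetyltransferase, had 10.2, 12.9, 13.1 and 9.85 CPM in cyc8 snf2, 12.5, 11.2 and 10.9 CPM in cyc8, 12.9 and 13.4 CPM in snf2, and 14.2, 14.7 and 17.6 CPM in wt. Every mutant library lay below every wt library. ADA2 fell by 0.43 ± 0.13 in cyc8 against wt (adjusted p = 0.0164), lost without cyc8 replicate 2, cyc8 replicate 3 or wt replicate 3 (adjusted p = 0.054 to 0.0971), and by 0.43 ± 0.12 in cyc8 snf2 against wt (adjusted p = 0.0103), under every alternative tried. SPT7 (YBR081C, chrII:401253-405251), a scaffold subunit, had 29.7, 31.9, 31.4 and 28.2 CPM in cyc8 snf2 and 27.7, 31.0 and 32.4 CPM in cyc8, against 35.7 and 37.0 CPM in snf2 and 34.3, 39.6 and 33.9 CPM in wt. The libraries labelled with cyc8 lay below the rest. It fell by 0.24 ± 0.09 in cyc8 against wt (adjusted p = 0.0428), by 0.25 ± 0.08 in cyc8 snf2 against wt (adjusted p = 0.0267) and by 0.26 ± 0.09 in cyc8 snf2 against snf2 (adjusted p = 0.0343). These were lost on leaving out any 1 of 5 libraries in the first (all but wt replicate 3, adjusted p = 0.0505 to 0.184), 3 in the second (cyc8 snf2 replicates 1 and 4 and wt replicate 2, adjusted p = 0.0505 to 0.143) and 4 in the third (cyc8 snf2 replicates 1 and 4 and both of snf2, adjusted p = 0.0599 to 0.199).

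SPT3 (YDR392W, chrIV:1258191-1259984), which also contacts the TATA-binding protein, had 15.3, 14.1, 15.3 and 14.1 CPM in cyc8 snf2, 15.6, 13.7 and 16.7 CPM in cyc8, 17.8 and 17.7 CPM in snf2, and 13.7, 14.3 and 13.02 CPM in wt. Its snf2 libraries were the highest. It rose by 0.38 ± 0.11 in snf2 against wt (adjusted p = 0.0154), lost without either snf2 library (adjusted p = 0.0725 and 0.0799). It fell by 0.28 ± 0.10 in cyc8 snf2 against snf2 (adjusted p = 0.0414), lost without cyc8 snf2 replicate 2, cyc8 snf2 replicate 4 or either snf2 library (adjusted p = 0.0875 to 0.179). GCN5 (YGR252W, chrVII:996791-998396), the acetyltransferase, and SPT20 (YOL148C, chrXV:45760-47574), a core subunit, passed in none of the comparisons. In cyc8 against wt their log2 fold changes were -0.18 ± 0.09 for GCN5, whose model is covered to 58.3% by models on the other strand, and -0.09 ± 0.11 for SPT20.

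Loss of Cyc8 was measured in both strain backgrounds with no library in common. Of the 17 genes that passed in cyc8 against wt and the 11 that passed in cyc8 snf2 against snf2, 5 passed in both in the same direction, which is 45.5% of the second list and 29.4% of the first. Over all genes tested these shares were 52.8% and 54.2%, both higher. They were RSC30, ISW2, IOC3, SPT7 and HIR1, all lower. LDB7 passed in both in opposite directions, higher against snf2 and lower against wt. The sign was the same for 25 of the 35 genes (71.4%), close to the 69.8% of all genes tested. Across the 35 genes the Pearson correlation of the log2 fold changes was 0.43 and the Spearman correlation 0.35, against 0.70 and 0.52 across all genes, given as a description because genes of 1 library are not replicates. The loss of Snf2, measured in cyc8 snf2 against cyc8 and in snf2 against wt and there bound to strain, had 0 genes in common of the 4 and 6 that passed. Over all genes 452 passed in both in the same direction, which is 38.5% of the first list and 20.4% of the second. The sign was the same for 15 of the 35, or 42.9%, against 56.2% of all genes.

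**Figure D5:**
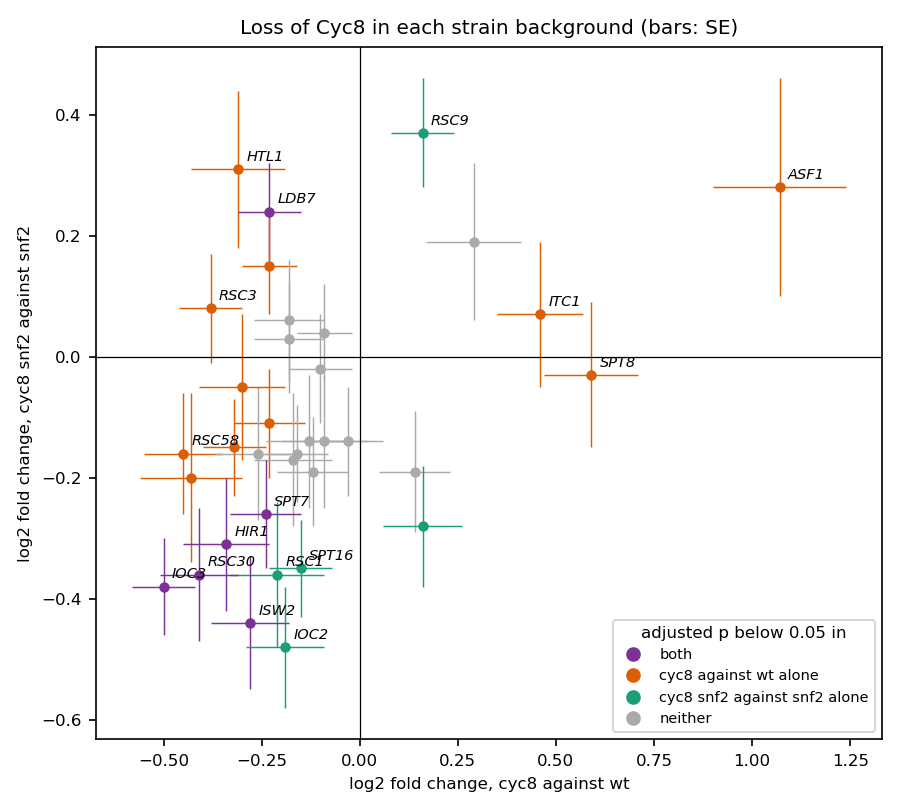
Log2 fold change with SE bars of the 35 genes in cyc8 snf2 against snf2 (vertical axis) and in cyc8 against wt (horizontal axis), coloured by the comparisons in which the edgeR adjusted p is below 0.05. RSC30, ISW2, IOC3, SPT7 and HIR1 lie in the lower left and passed in both, while ASF1 (0.28 and 1.07) and SPT8 (-0.03 and 0.59) lie to the right.

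The change that goes with loss of Cyc8 differed between the backgrounds in 7 of the 35 genes by the interaction test, against 26.4% of all genes, 4 of them positive (13.7% of all genes) and 3 negative (12.7%). The interaction was -0.79 ± 0.25 for ASF1 (adjusted p = 0.0291), -0.62 ± 0.17 for SPT8 (adjusted p = 0.0159) and -0.44 ± 0.14 for SPT3 (adjusted p = 0.0388), genes with log2 fold changes of 0.28, -0.03 and -0.28 in cyc8 snf2 against snf2 and of 1.07, 0.59 and 0.16 in cyc8 against wt. It was 0.62 ± 0.17 for HTL1 (adjusted p = 0.018), 0.46 ± 0.12 for RSC3 (adjusted p = 0.0122), 0.46 ± 0.12 for LDB7 (adjusted p = 0.00964) and 0.38 ± 0.11 for SPT6 (adjusted p = 0.0191), genes with log2 fold changes of 0.31, 0.08, 0.24 and 0.15 in cyc8 snf2 against snf2 and of -0.31, -0.38, -0.23 and -0.23 in cyc8 against wt. The count of 7 was 4 without cyc8 replicate 3, 2 without snf2 replicate 1 and 1 without snf2 replicate 2. The FY2083 strains differ from the BY4741 strains at other loci as well as in Snf2, and these differences cannot be told apart.

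Other subunits of the same complexes, subunits of Swi-Snf, other histone chaperones and other ATPases of the Snf2 family gave 69 further genes, all tested. The disrupted gene SNF2 is among them. It counts as lower in snf2 against wt (-0.28) and as higher in cyc8 snf2 against wt (0.44), snf2 (0.72) and cyc8 (0.45). Of the 69 genes, 17 fell (24.6%, against 23.9% of all genes) and 7 rose (10.1%, against 22.9%) in cyc8 against wt. The share that fell was thus near that of all genes. In snf2 against wt 4 fell (5.8%, against 18.7%) and 12 rose (17.4%, against 17.3%). In cyc8 snf2 16 fell (23.2%, against 25.6%) and 11 rose (15.9%, against 25.3%) relative to wt, and 19 fell (27.5%, against 23.8%) and 5 rose (7.25%, against 24.3%) relative to snf2. Relative to cyc8 5 fell (7.25%, against 10.4%) and 13 rose (18.8%, against 8.62%). Their median log2 fold change in cyc8 against wt was -0.05, the value of all genes tested. The largest changes in cyc8 against wt were in RAD16 (1.91 ± 0.10, adjusted p = 3.29e-09), an ATPase of nucleotide excision repair, RAD54 (1.74 ± 0.11, adjusted p = 2.16e-08), which acts in recombination, HFI1 (-0.86 ± 0.10, adjusted p = 7.13e-06), a SAGA scaffold, and MOT1 (0.86 ± 0.08, adjusted p = 1.08e-06), which removes the TATA-binding protein from DNA. The model of RAD16 lies 128 bases from that of CYC8, so its changes and the disruption of CYC8 beside it cannot be told apart. It also overlaps the model of LYS2, which the cyc8 snf2 strain lacks (lys2del0). The state of LYS2 therefore differs where cyc8 snf2 is set against wt, and that of the snf2 strain is not given above.

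RAD54 fell by 1.02 ± 0.10 in cyc8 snf2 against cyc8 (adjusted p = 8.15e-06), with an interaction of -1.5 ± 0.16 (adjusted p = 2.01e-05). In snf2 against wt the INO80 subunit genes IES5 (1.27 ± 0.09, adjusted p = 2.63e-07) and IES6 (1.24 ± 0.11, adjusted p = 1.07e-06) rose more than any of the 35 genes. The chromatin assembly gene MSI1 fell by 0.69 ± 0.15 (adjusted p = 0.00329), and RAD26 rose by 0.60 ± 0.17 (adjusted p = 0.0127), lost without snf2 replicate 1 or snf2 replicate 2 (adjusted p = 0.0567 and 0.079). IES5 and IES6 rose also in cyc8 snf2 against wt, by 0.75 ± 0.08 and 0.86 ± 0.09 (adjusted p = 4.75e-06 and 4.28e-06).

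The genes next to ASF1 and SPT8 were looked at after the values of those 2 members were seen. ASF1 is divergent from NCA3, with 1413 bases between the genes of the reference annotation. SPT8 is divergent from ERG3, an enzyme of ergosterol synthesis, at 780 bases by the same measure. The counted model of ASF1 takes up 684 of those 1413 bases, so the counted models lie nearer. NCA3 had 10.5, 11.6, 11.0 and 14.6 CPM in cyc8 snf2, 61.7, 29.4 and 40.6 CPM in cyc8, 1.50 and 1.96 CPM in snf2, and 5.77, 3.38 and 5.47 CPM in wt. Its log2 fold change was 3.16 in cyc8 against wt (adjusted p = 1.68e-06) and 2.79 in cyc8 snf2 against snf2. ERG3 had 867, 920.5, 846 and 865 CPM in cyc8 snf2, 1669, 1428 and 1424 CPM in cyc8, 433 and 442 CPM in snf2, and 288, 260 and 323 CPM in wt, a log2 fold change of 2.38 in cyc8 against wt (adjusted p = 1.21e-10) and 1.00 in cyc8 snf2 against snf2. Of the 34 upstream neighbours tested, NCA3 and ERG3 were the 2 that reached 2-fold in cyc8 against wt, as did 13.9% of all genes. In cyc8 snf2 against snf2 NCA3, MSC1 and YFR012W-A did (12.2% of all genes), and ERG3 fell just short. MSC1, upstream of RSC9, changed there by 1.90 (edgeR adjusted p = 0.00136). YFR012W-A, upstream of IOC3, changed by -3.60 (edgeR adjusted p = 4.84e-05). The part of these neighbours in the changes of the members was not tested.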

How the data were processed

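The deposited table holds raw read counts of every gene in 12 libraries. The tools STAR, featureCounts and deepTools and the build R64 come from the submitters' processing notes. Their versions and whether counting used the strand were not given in the sources used here. In the table, 115 gene models nested in another on the same strand had a median total of 0 counts, and 91 named models nested on the opposite strand alone had 2339. Genes of ribosomal RNA (12, holding 2 counts together) were left out.

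Tests used edgeR 4.0.16 in R 4.3.3 (quasi-likelihood, TMM scaling, filterByExpr, robust dispersions), with the 12 libraries in 1 fit and 1 mean per group. Benjamini-Hochberg adjustment ran over all 6171 genes tested. All 35 members passed the filter, and the lowest count of a member in a library was 116. CPM uses TMM-scaled library sizes, and levels per kilobase use the length of the deposited gene model. The steps were checked on simulated counts. Gene models and upstream sequence come from the table and the RefSeq genome of build R64, whose loci matched all 35 members, and 7 member models span the coding part alone. Groups come from the genotype in the labels. The settings varied were the scaling (RLE, upper quartile), the low-count filter (2 others), a block on replicate number, the libraries entering the fit, the robust option, the tool (DESeq2 1.42.0, voom of limma 3.58.1) and single libraries. Named genes were the ATPases, up to 8 members with the largest changes per comparison, further members where needed, and up to 4 other subunits with the largest changes and a mean of at least 10 CPM. The members, the lists and the tests were chosen with earlier results of these data known.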

Additional observations from a re-analysis of the deposited data

Results flagged for a closer look

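The change that goes with loss of Cyc8 differed between the FY2083 background without Snf2 (cyc8 snf2 against snf2) and the BY4741 background (cyc8 against wt) in 7 of the 35 genes, by the interaction term of edgeR. That is 20% of the 35, below the 26.4% of all genes tested. The value is the log2 change in the first background minus that in the second: RSC3 had 0.46, HTL1 0.62, LDB7 0.46, SPT6 0.38, SPT3 -0.44, SPT8 -0.62 and ASF1 -0.79. Strain and Snf2 cannot be told apart in this difference. Leaving out 1 library ended the call for RSC3 without snf2 replicate 2 (adjusted p = 0.077), for SPT8 without snf2 replicate 1 (adjusted p = 0.111), for LDB7 and SPT6 without either snf2 library (adjusted p = 0.0503 and 0.0626, and 0.0827 and 0.0899) and for HTL1 without cyc8 replicate 3 or either snf2 library (adjusted p = 0.0595 to 0.109). The calls of ASF1 (adjusted p = 0.0539 to 0.143) and SPT3 (adjusted p = 0.0647 to 0.0939) were each lost on leaving out any 1 of 7 of the 12 libraries.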

How the results depend on the processing

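The count of members that passed kept within 1.5 times its value under most alternatives. Upper-quartile scaling gave 28 in cyc8 against wt (from 17) and 19 in cyc8 snf2 against snf2 (from 11), where it moved the median log2 fold change of all genes to -0.17 and -0.16, and that of the 35 genes to -0.31 and -0.27. Fits of the compared libraries alone gave 9 in cyc8 against wt and 9 in cyc8 snf2 against wt (from 14). With each library left out in turn the count ranged from 9 to 13 in cyc8 against wt, 1 to 7 in snf2 against wt, 9 to 15 in cyc8 snf2 against wt, 3 to 10 against snf2, 1 to 4 against cyc8, and 1 to 7 for the interaction. The cause was not tested. With 1 of the snf2 libraries left out the other is assumed to vary like the other groups.

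The replicate numbers gave no sign of pairing the libraries. In their deviations from the group means, same-numbered libraries correlated at -0.13 to 0.21 and the others at -0.36 to 0.39. Of the 12 libraries, 1 correlated best with its own number, and cyc8 snf2 replicate 4 could not, having no library of its number in another group. With the replicate block 8 members passed in cyc8 snf2 against wt, 2 in cyc8 snf2 against cyc8 (from 4) and 3 for the interaction (from 7), while the counts were 14 in cyc8 against wt, 4 in snf2 against wt and 10 in cyc8 snf2 against snf2.

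All 35 members had 116 counts or more in every library, and the 2 snf2 libraries limit every comparison that uses them.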
